A study of Mus musculus with 16 samples.

Results

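H3K27me3, the trimethylation of lysine 27 of histone H3, was compared between DMSO and the EZH2 inhibitor GSK343 in splenic B cells of mice mutant for 3 cytosolic sensors of nucleic acids. Genes were the members, chosen by position: each protein-coding gene of GRCm38 on chromosomes 1 to 19 with at least 1 bp of its body inside a peak of the mutant DMSO list or the mutant GSK343 list. These were 7283 of 20665 genes, and 7511 genes had such coverage in at least 1 of the 4 lists of the series. The cells came from C57BL/6 mice 6 to 8 weeks old, were isolated by magnetic sorting with CD43 beads, and spent 48 hours in medium with BAFF and IL-4, a supplement shared by each group. DMSO alone was the control, and GSK343 was given at 1 µM. The mutant genotype is labelled Ifih1/Rigi/cGAS triple mutant. The alleles, the number of animals and whether replicates came from separate animals are not given in the sources used here. Wild-type (WT) cells of the same strain were treated in the same way, and each of the 4 combinations of genotype and treatment had 2 ChIP and 2 input samples.

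For each combination the data were 1 broad peak list, with the build given as mm10 in the submitters' processing notes. The folder name inside the peak names refers to pooled duplicates, whereas the prefix of the mutant peak names ends in 1, so a list from replicate 1 alone cannot be told apart from a pooled one. With 1 list per group there was no spread between replicates and no test, and the read depth is unknown. Each difference below is therefore a difference between these 2 lists. On chromosomes 1 to 19 the mutant lists held 48321 peaks under DMSO and 10705 under GSK343, which covered 132.2 Mb and 16.81 Mb. The lists also differed in how weak a peak they contained. The fold over background, a value given to each peak by the authors' peak caller, had a 5th percentile of 2.12 under DMSO and 2.587 under GSK343. At a fold of 2.9 to 3.1 the median −log10 p was 6.125 under DMSO and 4.988 under GSK343. Part of the numbering was missing from the lists analysed here, 2.886% of the peak numbers under DMSO and 3.719% under GSK343. Genes lying in a stretch between 2 neighbouring peaks whose numbers skip are pointed out where a result touches them.

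EZH2 is the catalytic subunit of Polycomb repressive complex PRC2, which places methyl groups on lysine 27 of histone H3 together with its partners EED and SUZ12. The trimethylated form marks silent genes, above all the transcription factors of other lineages, and it often extends as a broad domain over CpG-rich promoters and whole short genes. In B cells EZH2 is known for its role in the germinal centre, where it holds cell cycle inhibitors and plasma cell genes silent. GSK343 is a small molecule that competes with the methyl donor of the enzyme, so that existing marks are diluted as cells divide or are removed by demethylases. The labels were checked against marker genes. Of 12 genes active in B cells, among them Cd79a, Ms4a1 (CD20) and Pax5, 0 had a base in a mutant DMSO peak. Peaks covered 5 of 8 T cell markers, 4 of 7 myeloid markers and 2 of 4 erythroid markers under DMSO. Over all protein-coding genes the share covered was 35.1%, and lists this short give only a rough check. A peak list cannot measure the share of other cells in a sample.

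The 3 outcomes that the comparison separates were defined on gene bodies, and promoters of genes of each outcome are shown as examples. For each outcome the 2 highest-ranked genes were taken whose 250 bases before the start lay in a DMSO peak and outside each gene body of the table. The sequences are RefSeq promoters of GRCm38.p6, written 5′ to 3′ on the strand of the gene, with each CpG, the dinucleotide at which mammalian DNA is methylated and which is dense at Polycomb targets, in capitals. Cdkn2a encodes inhibitors of the cell cycle and Skor1 a neuronal corepressor of transcription, and both genes had at least 50% as many bases covered under GSK343 as under DMSO. Myo3b encodes a myosin of the inner ear and retina and Pde4dip an anchoring protein of the Golgi and centrosome, and both retained less. Lrrc37a and Ahrr, which encodes the repressor of the aryl hydrocarbon receptor, had no base covered under GSK343. The promoters lay at chr4:89294620-89294869 (Cdkn2a), chr9:63148962-63149211 (Skor1), chr2:70038876-70039125 (Myo3b), chr3:97888708-97888957 (Pde4dip), chr11:103505009-103505258 (Lrrc37a) and chr13:74292332-74292581 (Ahrr), with Myo3b on the plus strand and the other 5 on the minus strand.
Cdkn2a: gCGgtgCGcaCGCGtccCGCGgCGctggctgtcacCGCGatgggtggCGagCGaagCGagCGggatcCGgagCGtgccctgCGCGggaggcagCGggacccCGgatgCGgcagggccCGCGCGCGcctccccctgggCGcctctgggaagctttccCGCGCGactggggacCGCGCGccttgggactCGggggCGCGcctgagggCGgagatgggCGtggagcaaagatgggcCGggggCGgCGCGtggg
Skor1: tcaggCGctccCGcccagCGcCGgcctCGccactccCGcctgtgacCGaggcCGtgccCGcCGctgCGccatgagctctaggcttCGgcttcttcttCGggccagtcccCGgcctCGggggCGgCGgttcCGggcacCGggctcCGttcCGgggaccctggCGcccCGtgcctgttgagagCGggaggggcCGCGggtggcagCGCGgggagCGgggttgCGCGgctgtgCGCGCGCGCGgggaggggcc
Myo3b: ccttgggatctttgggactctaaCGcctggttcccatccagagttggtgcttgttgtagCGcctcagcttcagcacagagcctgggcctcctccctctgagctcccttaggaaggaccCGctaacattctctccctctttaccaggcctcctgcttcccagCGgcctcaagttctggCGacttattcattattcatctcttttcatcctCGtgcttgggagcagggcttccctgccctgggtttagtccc
Pde4dip: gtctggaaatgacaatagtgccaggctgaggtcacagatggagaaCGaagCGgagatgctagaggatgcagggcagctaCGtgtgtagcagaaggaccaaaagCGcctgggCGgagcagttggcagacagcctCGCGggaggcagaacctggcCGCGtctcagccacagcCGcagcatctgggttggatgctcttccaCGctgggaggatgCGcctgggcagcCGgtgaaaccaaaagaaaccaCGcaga
Lrrc37a: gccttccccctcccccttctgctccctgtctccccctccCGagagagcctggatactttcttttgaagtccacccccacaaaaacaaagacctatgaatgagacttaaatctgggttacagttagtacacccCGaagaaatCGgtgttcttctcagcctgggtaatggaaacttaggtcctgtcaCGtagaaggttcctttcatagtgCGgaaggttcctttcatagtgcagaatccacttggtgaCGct
Ahrr: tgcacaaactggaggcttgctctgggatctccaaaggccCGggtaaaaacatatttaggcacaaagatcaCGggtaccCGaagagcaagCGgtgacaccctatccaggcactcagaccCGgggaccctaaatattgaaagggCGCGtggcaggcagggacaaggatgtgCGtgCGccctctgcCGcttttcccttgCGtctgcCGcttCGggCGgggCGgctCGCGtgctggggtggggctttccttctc
The number of CpG in these 250 bases was 40 for Cdkn2a, 36 for Skor1, 6 for Myo3b, 14 for Pde4dip, 6 for Lrrc37a and 17 for Ahrr. Under GSK343 a peak held all 250 bases of the Cdkn2a, Skor1 and Pde4dip promoters and 0 bases of the Myo3b, Lrrc37a and Ahrr promoters. The promoter alone thus did not separate the 3 outcomes. The Pde4dip promoter was in a peak under both treatments, while the gene's covered length under GSK343 was 3.135% of that under DMSO.

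Under DMSO, mutant peaks covered 7253 of 20665 genes (35.1%). A covered gene was classed as lost when 0 bp of it lay in a GSK343 peak, as shrunk when its bases in GSK343 peaks numbered less than 50% of its bases in DMSO peaks, and as kept from 50% upward. The retained share is this ratio of 2 lengths, so it does not require the same bases to be covered and can exceed 100%. In these terms 966 genes were kept (13.3%), 3321 were shrunk (45.8%) and 2966 were lost (40.9%). Summed over genes, 57.06 Mb of gene body lay in DMSO peaks and 10.26 Mb in GSK343 peaks, a retained share of 17.98%. The median retained share was 8.714%, with quartiles of 0% and 32.01%. The limit between shrunk and kept did not fall in a gap of the distribution, since 196 genes retained 45 to 50% and 185 retained 50 to 55%. A set of 142 genes had at least as many covered bases under GSK343 as under DMSO, 130 of them the same number.

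**Figure D1:**
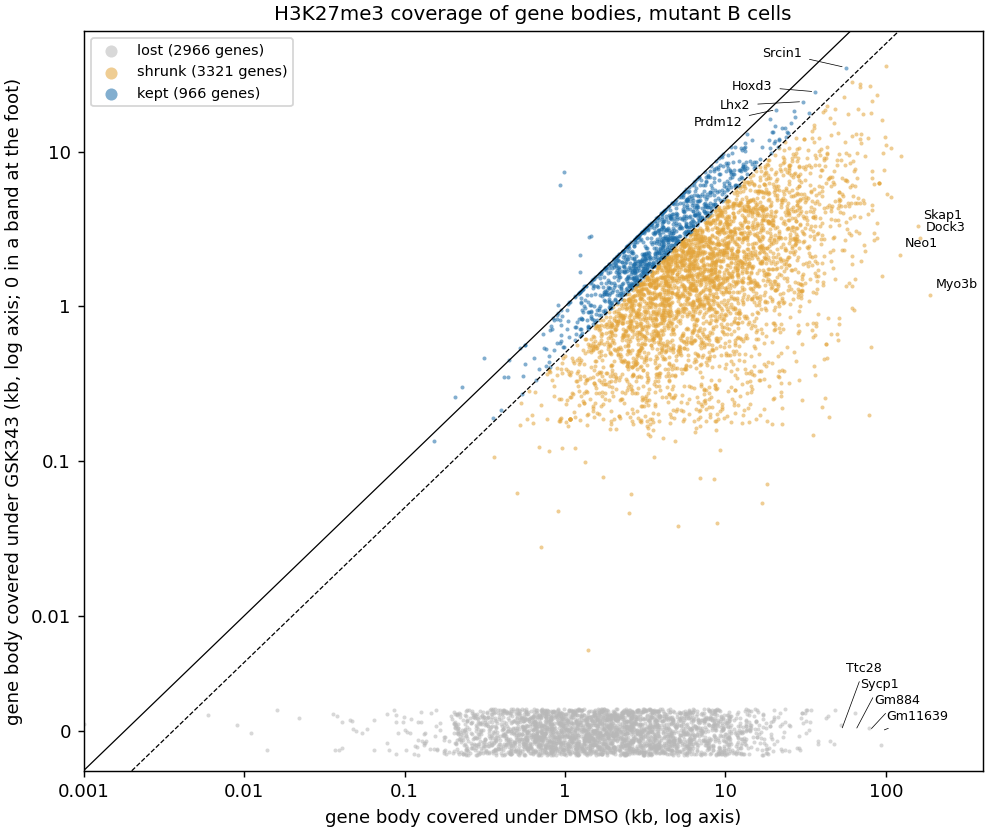
Each point is 1 of the 7253 genes covered under mutant DMSO, placed by the kb of its body in DMSO peaks (x, log axis) and in GSK343 peaks (y, log axis, with the genes at 0 spread in a band at the foot). The solid line marks equal coverage and the dashed line 50%, which divides the 966 kept genes (blue) from the 3321 shrunk genes (orange); the 2966 lost genes (grey) lie mostly below 10 kb of DMSO coverage.

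The kept, shrunk and lost genes differed in size and in how they were covered under DMSO. Kept genes were short, with a median length of 7720 bp, and 93.1% of the median kept gene was covered under DMSO. Shrunk genes had a median length of 43460 bp, and their median coverage was 23.47% under DMSO and 3.113% under GSK343. Lost genes had a median length of 21830 bp and 1679 bp of DMSO coverage, which was 9.86% of the gene. Of the 778 genes covered in full under DMSO, 463 (59.5%) were kept and 107 (13.75%) were lost, whereas of the 2738 genes covered by less than 10% of their length, 7.852% were kept and 54.6% were lost. Length alone ordered the classes less simply. When covered genes were divided by length into 10 equal bins, 36.5% were kept and 48.9% lost in the shortest bin (median 2230 bp), and in the longest (median 332300 bp) 11.02% were kept and 24.66% were lost.

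The strength of the DMSO peak went with the outcome. The highest fold of a DMSO peak over the gene had a median of 4.318 for kept, 3.767 for shrunk and 2.499 for lost genes. When the genes were divided into 4 equal bins of that fold, 95.48% were lost in the lowest bin (2.015 to 2.574) and 3.475% in the highest (4.011 to 6.898). Of the 2966 lost genes, 1773 (59.78%) had a top DMSO fold below 2.587, the 5th percentile of the GSK343 list, a level at which few GSK343 peaks were listed at all. The same held for 2.168% of shrunk and 1.553% of kept genes. When the DMSO list was limited to peaks whose fold reached 3 and the GSK343 list was left whole, 403 of 4312 covered genes (9.346%) were lost, and the retained share of bases was 35.28%. When both lists were limited to a fold of at least 3, 1357 of the 4312 genes (31.47%) were lost, and the retained share was 25.83%. Most lost genes thus had only weak DMSO peaks, but the number lost depended on which lists were limited. The part that the different lower limits of the lists played in it was not tested.

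Of the 20 gene lists examined, the 4 with the highest share of kept genes held developmental transcription factors. The Hox genes, which set position along the body axis, were covered in 39 of 39 cases under DMSO. Of these, 31 were kept, 6 shrunk and 2 lost, and the median Hox gene retained 80.5% of its covered bases, against 8.714% over the 7253 covered genes. Peaks covered 100% of Hoxc9 (chromosome 15, 102977032 to 102984444) and of Hoxb9 (chromosome 11, 96271330 to 96276595) under both treatments. The shrunk and lost Hox genes included pairs of overlapping genes of the Hoxa and Hoxb clusters. Hoxa3 was covered by 91.15% under DMSO and 17.25% under GSK343, and Hoxa5, which lies inside the RefSeq body of Hoxa3, by 73.15% and 0%. Hoxb3 was covered by 94.44% and 8.072%, and Hoxb4, which lies inside the RefSeq body of Hoxb3, by 88.79% and 0%.

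Of 86 other homeobox genes, 84 were covered under DMSO, with 65 kept, 19 shrunk and 0 lost, and a median retained share of 82.57%. Otx1 of the forebrain and Tlx1, needed for the spleen itself, were covered by 100% under both treatments. Gbx1, with 90.37% and 17.22%, was among the members with the lowest shares and still had 3 GSK343 peaks. Forkhead genes were similar, with 19 of 26 covered genes kept, 5 shrunk and 2 lost, and a median of 83.52%. Foxf2, a factor of gut mesenchyme, was covered in full under both treatments. The 2 lost forkhead genes, Foxi1 and Foxh1, had DMSO peaks of low fold, 2.341 and 2.433, and Foxi1 lies in a stretch where GSK343 peak numbers are absent.

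Tissue-specific bHLH factors, which direct neuronal, muscle and mesodermal fates, were covered in 35 of 41 cases, with 23 kept, 9 shrunk and 3 lost (median 67.53%). Hand1 of the heart and Olig2 of the oligodendrocyte lineage were covered by 100% under both treatments. Neurod4, Tcf23 and Scx made up the lost genes. Sox and T-box factors were divided more evenly, with 12 of 24 covered genes kept, 10 shrunk and 2 lost (median 50.38%). Tbx1 and Tbx2, regulators of the pharynx, heart and limb, stayed at 100%, whereas the neural crest factor Sox10 was covered by 97.17% and 26.32%. Of the 12 Pax and Gata factors examined, 4 were kept, 7 shrunk and 1, Pax4, was lost (median 34.4%). Gata2, a factor of blood stem cells, was covered by 100% under DMSO and 86.56% under GSK343, and the eye factor Pax6 by 90.58% and 62.09%. Pax8 of the thyroid and kidney was covered by 58.9% and 6.543%.

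Genes for secreted signals, guidance cues and neuronal membrane proteins had lower medians than these factors, but higher than the 8.714% over all covered genes. In that order 31.48%, 18.6% and 12.7% of their covered genes were kept, and 14.81%, 11.63% and 15.87% were lost. Over all covered genes 13.3% were kept, 45.8% shrunk and 40.9% lost. Of 54 covered genes for Wnt, Fgf, Bmp and Hedgehog ligands, the secreted signals of the embryo, 17 were kept, 29 shrunk and 8 lost, with a median of 34.12%. Wnt1 and Gdf7 were covered by 100% under both treatments, and Shh by 100% and 79.84%. Fgf6 and Gdf5 were lost from 36.8% and 32.29%. Axon guidance genes had 8 kept, 30 shrunk and 5 lost of 43 covered (median 26.3%). Among them the ephrin gene Efna3 was covered by 100% and 85.13%, and the receptor gene Epha2 by 10.47% and 0%. Neuronal ion channels and receptors, many of them long genes with a median DMSO coverage of 2.753%, had 8 kept, 45 shrunk and 10 lost of 63 covered (median 17.86%). The potassium channel gene Kcna1 was covered by 43.69% and 37.46%, and the calcium channel gene Cacna1c by 10.47% and 0.9839%.

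Coverage and strength under DMSO differed between these lists, so the counts were also taken within narrower sets of genes, chosen after the values were seen. Among genes covered in full under DMSO, of which 59.5% were kept, the kept genes were 31 of 35 Hox, 60 of 68 other homeobox, 16 of 19 forkhead and 22 of 26 bHLH genes. The neuronal channels and receptors in that set were 6, of which 1, the dopamine receptor gene Drd1, was kept and 5 were shrunk. In the highest of the 4 bins of DMSO fold, of which 37.4% were kept, the kept genes were 29 of 36 Hox, 64 of 78 other homeobox and 5 of 31 neuronal genes. Other lists lay between these. They had 11 of 21 Sox and T-box, 4 of 10 Pax and Gata, and 15 of 29 ligand genes kept. Of axon guidance genes 5 of 18 were kept, and of myeloid, erythroid and stem cell genes 4 of 6.

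**Figure D2:**
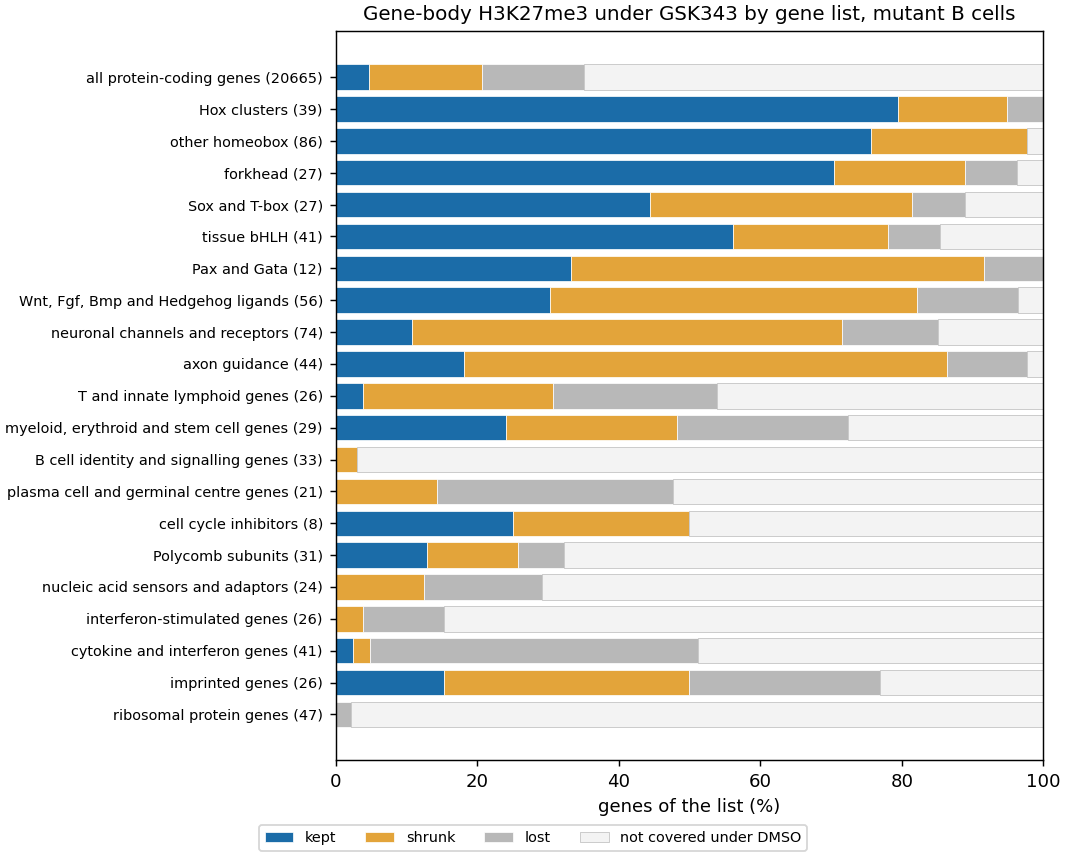
Each bar divides a gene list (number of genes in brackets) into the percent of its genes kept, shrunk, lost or not covered under mutant DMSO. The bar of the 39 Hox genes is mostly kept, the bar of the 74 neuronal channel and receptor genes mostly shrunk, and the bar of the 41 cytokine and interferon genes has 19 lost, 1 kept and 1 shrunk; 32 of the 33 B cell genes had no DMSO coverage.

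Genes of other blood lineages were a mixture. Of 14 covered genes of T and innate lymphoid cells, 1 was kept, 7 shrunk and 6 lost (median 13.15%), and the 7.143% kept and 42.86% lost stood beside 13.3% and 40.9% over all covered genes. The kept gene was Gata3, the regulator of T helper cells, with 65.49% covered under DMSO and 38.05% under GSK343. Cd3e, a signalling chain of the T cell receptor, was covered by 100% and 0%, and the co-receptor gene Cd4 by 52.44% and 0%. The same DMSO treatment gave Bcl11b, a factor of T cell commitment, 17.72%, and GSK343 left 5.926%. Of 21 covered myeloid, erythroid and stem cell genes, 7 were kept, 7 shrunk and 7 lost (median 23.16%). Cebpa, the regulator of granulocytes, was covered by 100% and 84.1%, the erythropoietin receptor gene Epor by 87.39% and 64.87%, and the globin gene Hba-a1 by 100% and 91.29%. The granulocyte marker Ly6g was covered by 75.62% and 0%, and it lies in a stretch with absent GSK343 numbers.

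Of 33 genes of B cell identity and signalling, 1 was covered under DMSO, where 35.1% of all genes were covered. It was Pou2f2, which encodes the B cell factor Oct-2, at 46.32% under DMSO and 7.156% under GSK343. Genes of the plasma cell and germinal centre stages were covered in 10 of 21 cases, with 0 kept, 3 shrunk and 7 lost, and a median retained share of 0%, where 40.9% of all covered genes were lost. With the DMSO list limited to folds from 3 upward and the GSK343 list left whole, 2 genes were covered, both were shrunk and 0 were lost. Prdm1, which encodes Blimp-1 and drives plasma cell formation, was covered by 27.61% in 12 peaks under DMSO and by 2.924% in 4 peaks under GSK343, and it touches a stretch with absent GSK343 numbers. Zbtb32 was covered by 61.69% and 0%, with a DMSO fold of 2.593. No RNA was measured in these samples, so coverage is the sole readout here.

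Nucleic acid sensors and their adaptors were covered in 7 of 24 cases, with 0 kept, 3 shrunk and 4 lost, against 35.1% of all genes covered and 40.9% of those lost. With the same limit on DMSO folds, 2 were covered, both shrunk and 0 lost. Among the genes named in the genotype, Ifih1 and Ddx58 (Rigi) had 0 bp covered under either treatment. Cgas (chromosome 9, 78430518 to 78443237), the sensor of cytosolic DNA, was covered by 1 DMSO peak over 90.5% of its body and by 4 GSK343 peaks over 23.16%. Aim2, a DNA sensor of the inflammasome, was covered by 40.88% and 5.316%. Interferon-stimulated genes were covered in 4 of 26 cases, with 1 shrunk and 3 lost, where 35.1% of all genes were covered and 40.9% of those were lost. Under that limit on DMSO folds, 2 of them were covered and both were lost. Cxcl9, a chemokine, was covered by 100% and 7.068%, and Ifitm3, which blocks viral entry, by 100% and 0%.

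Cytokine and interferon genes stood at the other end from the developmental factors. Of 21 covered genes, 19 were lost (90.48%, against 40.9% of covered genes), 1 was shrunk and 1 was kept. The type I interferon genes Ifna1, Ifna2 and Ifna4 were covered by 100% under DMSO and 0% under GSK343. Ifna5, Ifna6 and Ifna7 were lost too, but Ifna11 was shrunk, with a retained share of 43.12%. Predicted genes lying among the interferon genes were of each class, such as Gm13277 (kept, 92.01%), Gm13278 (shrunk, 34.75%) and Gm13275 (lost). Il10, an anti-inflammatory cytokine that B cells can make, was covered by 54.04% and 0%, and Il27 by 62.24% and 0%. The kept gene was Il11 (100% and 58.13%). Most of these genes lay in weak DMSO peaks: with that limit on the DMSO list, 4 of the 41 genes were covered, and 2 of the 4 were lost, 1 shrunk and 1 kept.

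Inhibitors of cyclin-dependent kinases, which hold the cell cycle, were covered in 4 of 8 cases, with 2 kept, 2 shrunk and 0 lost. Over all genes 35.1% were covered, and of those 13.3% were kept, 45.8% shrunk and 40.9% lost. Cdkn2a (chromosome 4, 89274473 to 89294619) was covered by 100% and 56.38%, in 1 DMSO peak and 8 GSK343 peaks. Cdkn2b, its neighbour, was covered by 100% and 48.46%, and Cdkn1c by 100% and 64.65%. Polycomb genes were covered in 10 of 31 cases, near the 35.1% over all genes, with 4 kept, 4 shrunk and 2 lost. Epop, a PRC2 partner, was covered by 100% and 92.15%, and the PRC1 gene Cbx7, part of which lies in a stretch with absent DMSO numbers, by 40.4% and 0.3975%. Kdm6b, which encodes a demethylase that removes the mark, was listed with them and was covered by 10.32% and 5.457%. Ezh1 had 0 bp covered under either treatment, and so did Ezh2, which lies in a stretch with absent peak numbers in both mutant lists.

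Imprinted genes, whose activity depends on the parent of origin, were covered in 20 of 26 cases, with 4 kept, 9 shrunk and 7 lost (median 8.633%), shares near those over all covered genes (13.3% kept, 45.8% shrunk and 40.9% lost, median 8.714%). Of the kept genes, 3 are near each other on chromosome 7: Ascl2 (100% under both treatments), Phlda2 (100% and 83.89%) and Cdkn1c. Slc22a18, beside Phlda2, was covered by 60.12% and 0.7263%. Igf2, a fetal growth factor, was covered by 93.63% and 48.97%, and Grb10 by 34.99% and 2.738%. Ribosomal protein genes, which are active in each cell type, were covered in 1 of 47 cases, where 35.1% of all genes were covered.

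The 10 kept genes with most bases under GSK343 were Srcin1, Hoxd3, Lhx2, Prdm12, Pax6, Bcar1, Espn, Nkx2-2, Tbx15 and Prdm8. Srcin1, a neuronal regulator of Src kinase (chromosome 11, 97509340 to 97575246), had 56.05 kb of 65.91 kb covered under DMSO and 34.98 kb under GSK343. Lhx2, a factor of the forebrain and limb (chromosome 2, 38339271 to 38369737), was covered over its whole 30.47 kb by 1 DMSO peak and over 21.07 kb by 6 GSK343 peaks. Prdm12 of sensory neurons retained 90.09% of 20.77 kb. Even these genes were mostly covered in pieces: 1 to 3 DMSO peaks gave way to between 2 and 11 GSK343 peaks.

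The 10 shrunk genes with the largest difference in covered bases were long. Myo3b (chromosome 2, 70039126 to 70429195) had 189.2 kb in 82 DMSO peaks and 1.183 kb in 3 GSK343 peaks, a retained share of 0.6252%. Skap1, a T cell adaptor, had 158.1 kb and 3.322 kb, and Neo1, a netrin receptor relative, had 121.7 kb and 2.164 kb. Dock3 (chromosome 9, 106892825 to 107232330), a guanine nucleotide exchange factor of neurons, had 163.4 kb and 2.775 kb. Its GSK343 peaks lay at its start, within a stretch from 59.53 kb before to 25.09 kb after the start in which DMSO peak numbers are absent, so DMSO coverage there is not known. The others were Nav2, Cdh23, Celf4, Arhgap26, Elapor2 and Asic2. The highest DMSO fold over these 10 genes ranged from 2.846 (Dock3) to 5.375 (Cdh23). Cdh23 touches a stretch with absent DMSO numbers as well.

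The 10 lost genes with most DMSO bases were Gm11639, Gm884, Sycp1, Ttc28, Tnr, Lrrc37a, Smc1b, Crb1, Ahrr and Vwa3b. Gm11639 (chromosome 11, 104781209 to 105009110) had 93.05 kb covered in 44 DMSO peaks. Sycp1 (chromosome 3, 102818499 to 102936100), a component of the synaptonemal complex of meiosis, had 64.24 kb in 17 peaks, and Smc1b (chromosome 15, 85064689 to 85131957), a meiotic cohesin subunit, 44.63 kb in 8 peaks. Sycp1 touches a stretch with absent DMSO numbers. Tnr is an extracellular matrix protein of the brain and Crb1 a polarity protein of the retina. The highest DMSO fold over these 10 genes lay between 2.555 (Tnr) and 3.194 (Ahrr), against 4.015 to 5.454 for the 10 kept genes named above.

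**Figure D3:**
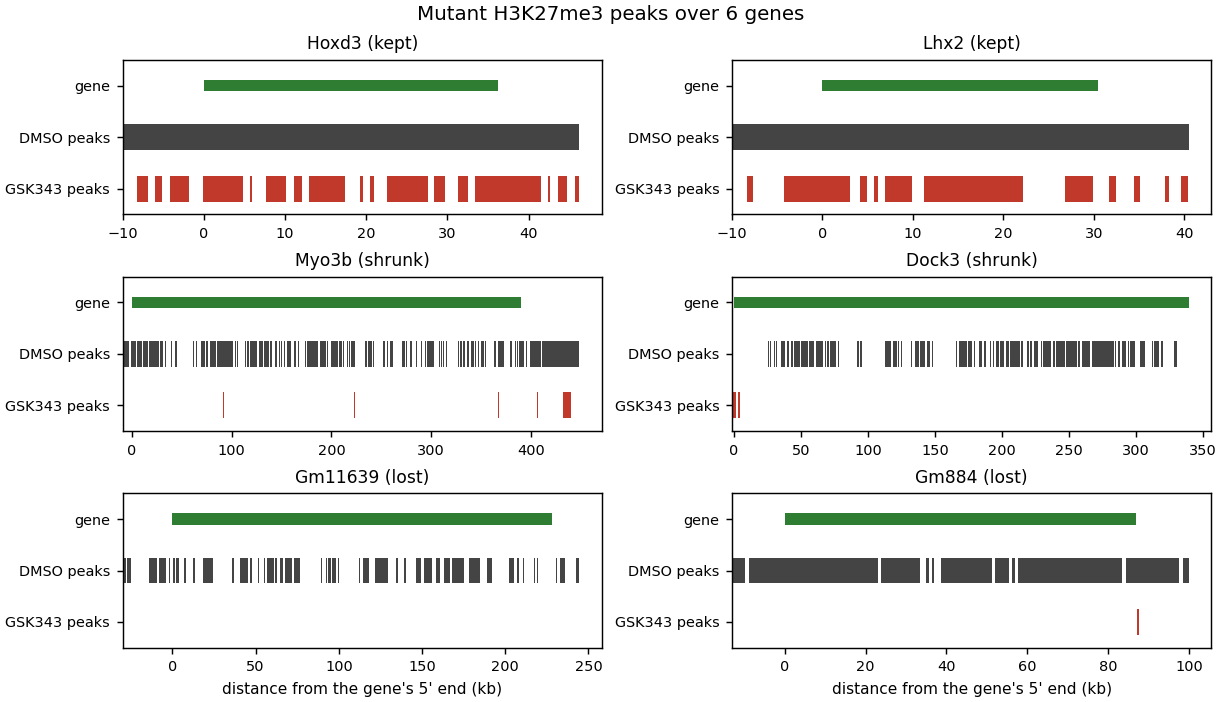
Peaks of mutant DMSO (grey) and mutant GSK343 (red) over 6 genes (green), with distance in kb from the 5′ end of each gene. Hoxd3 and Lhx2 lie in 1 DMSO peak and in 11 and 6 GSK343 peaks; Myo3b and Dock3 have 82 and 63 DMSO peaks and 3 and 2 GSK343 peaks; Gm11639 and Gm884 have no GSK343 peak in the gene.

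The breaking up of coverage was followed in the 651 mutant DMSO peaks of at least 20 kb. Under GSK343, 34 of them (5.223%) held no peak, 43 held 1 and 574 (88.17%) held 2 or more, with a median of 4 pieces. In all, 30.02% of their bases stayed inside a GSK343 peak, and the longest piece in each had a median of 4.047 kb. When peaks closer than 3 kb were joined, 1819 DMSO peaks were at least 20 kb wide, and 41.18% of them held 2 or more pieces. Joining thus changed the set of wide peaks as well as the gaps, and the 2 shares do not describe the same peaks. Narrow peaks were seldom replaced by a GSK343 peak: 99.04% of the 32034 DMSO peaks under 2 kb held none. Of the 4303 peaks of 5 to 10 kb, 49.31% held none. Over all widths the median fold of mutant DMSO peaks was 2.335, below 2.587, the 5th percentile of the GSK343 list. The part that the fold of the DMSO peaks played in these shares was not tested.

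The widest DMSO peak, 259.4 kb on chromosome 15 (102875489 to 103134902), spanned Hoxc4 to Hoxc13 and was replaced by 39 GSK343 peaks that covered 53.95% of it. The next were over Hoxb (164.8 kb, 27 pieces, 45.27%) and Hoxd (148 kb, 32 pieces, 53.95%). The widest Hoxa peak, 131.2 kb with the highest fold of the 5 (5.275), had 21 pieces over 62.58%. Between them in width was a peak of 131.9 kb on chromosome 15 (6946173 to 7078116) that overlapped no protein-coding gene. That peak had the lowest fold of the 5, 3.336, and 18 pieces that covered 15.8%. Wide peaks without a GSK343 peak were weak as well. The 5 widest had folds of 2.589 to 2.844 and lay over Lrrc37a, Gm884, Skap1, the seminal vesicle genes Svs5 and Svs6, and Ccdc42.

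**Figure D4:**
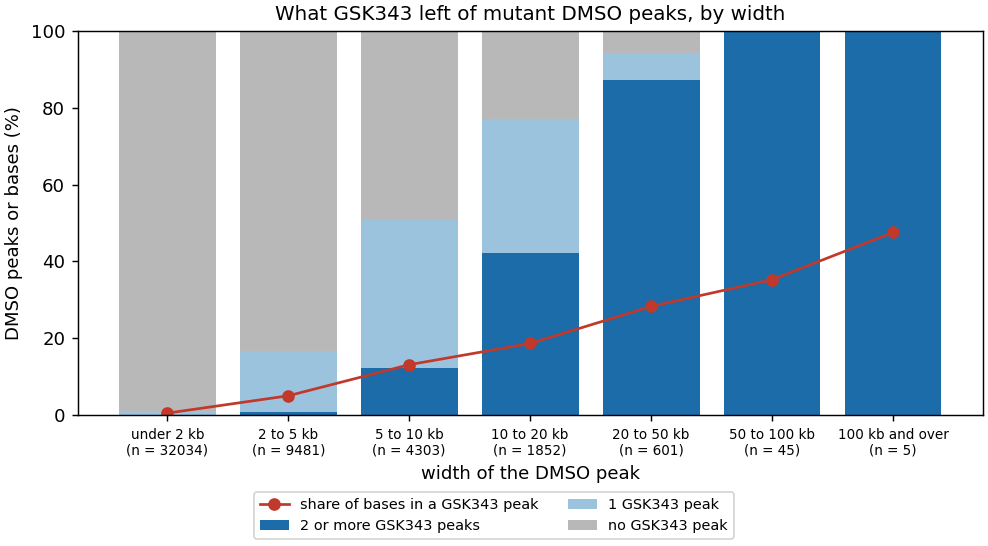
For mutant DMSO peaks in 7 classes of width (x, number of peaks in brackets), bars give the percent of peaks with 2 or more GSK343 peaks, 1 or none, and the red line the percent of their bases inside a GSK343 peak. Peaks without a GSK343 peak make up 99.04% of those under 2 kb, 5.657% of those of 20 to 50 kb and 0% of those of 50 kb and over, while the covered share of bases reaches 47.57% at 100 kb and over.

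Where along the gene the coverage remained was examined on chromosomes 4, 5, 9 and 12, where at least 80% of the genes of each class had a start in the RefSeq promoter table. Of the shrunk genes with a start, 89.67% had a DMSO peak within 1 kb of it and 80.4% a GSK343 peak. The shares were 95.03% and 94.48% for kept genes and 63.38% and 2.657% for lost genes. The GSK343 shares of kept and lost genes follow largely from how the classes were defined. A lost gene has 0 bp of its body in a GSK343 peak, so only a peak before the start could count. Along shrunk genes of at least 10 kb, the first of 10 equal segments of the body was covered by 64.26% on average under DMSO and 26.8% under GSK343, and the last segment by 19.03% and 2.368%. In shrunk genes the coverage that remained was thus concentrated near the start. In kept genes of at least 10 kb the first segment was covered by 54.35% and 45.26% and the last by 16.37% and 9.893%. Lost genes had less DMSO coverage at both ends, 24.35% in the first segment and 8.551% in the last.

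**Figure D5:**
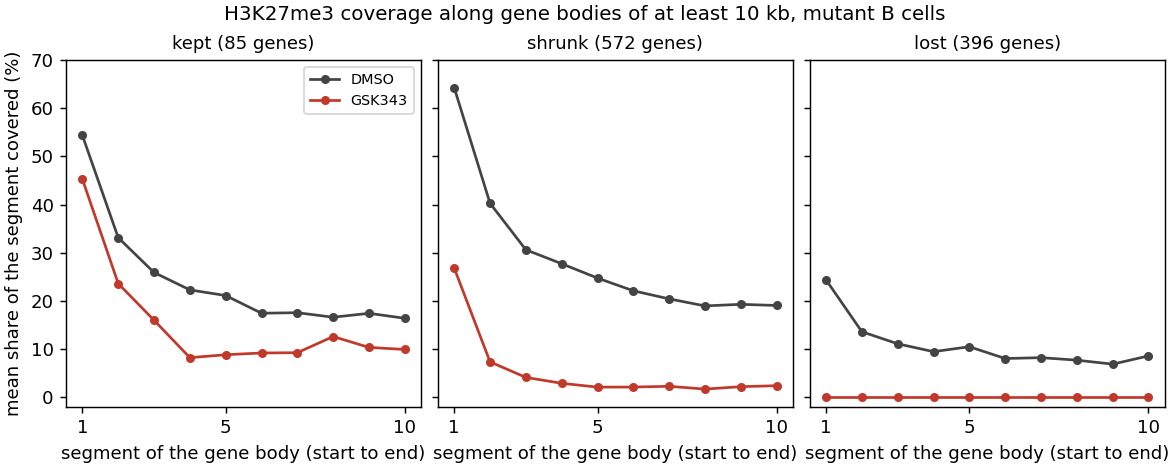
Mean percent of each of 10 equal segments of the gene body, from start to end, covered by mutant DMSO peaks (grey) and GSK343 peaks (red) in kept, shrunk and lost genes of at least 10 kb on chromosomes 4, 5, 9 and 12. In the 572 shrunk genes the red line drops from 26.8% in the first segment to 2.368% in the last, while the grey line goes from 64.26% to 19.03%.

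Promoter sequence differed between lost genes and the other classes, by an amount that depended on the limits set on peaks and genes. The ratio of observed to expected CpG in the 250 bases before the start, which is low in most mammalian DNA and high in CpG islands, had a median of 0.6775 for kept, 0.6417 for shrunk and 0.3868 for lost genes. The median number of CpG in the window was 16, 14 and 7 in the same order, and 13 for genes without DMSO coverage. Promoters with a ratio of at least 0.6 made up 56.35% of kept, 55.17% of shrunk and 35.1% of lost genes, and 54.33% of the genes without DMSO coverage. When both lists were limited to folds from 3 upward, this share was 60.12% of kept, 57.66% of shrunk and 52.45% of lost genes. The classes thus lay closer together at that limit. When at least 1 kb and 10% of the body had to be covered under DMSO, it was 56.1%, 53.22% and 25.81% in the same order. Of 1165 starts inside a DMSO peak, 716 (61.46%) were also inside a GSK343 peak. That share was 30.42% of 240 starts with a ratio under 0.3, 65.33% of 323 starts from 0.3 to 0.6, and 71.76% of 602 starts at or above 0.6.

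Genes covered under GSK343 and not under DMSO were rare, 30 of 13412 uncovered genes (0.224%). Of these, 23 lie in a stretch where mutant DMSO peak numbers are absent, so that their DMSO coverage is not known. Among the 23, 18 were covered in the WT DMSO list, such as the neural factors Zic2 (4.945 kb covered in WT DMSO and in mutant GSK343) and Zic5, the homeobox gene Nkx2-6, and the pluripotency factor Pou5f1. The 5 with most GSK343 bases were Gm8909, Exoc3l4, BC107364, Zic2 and Nrbp2, each in such a stretch. The other 7 had between 101 and 619 bp covered. Of the 12 genes with DMSO coverage and more of it under GSK343, 5 lie in such a stretch, among them Pcca and Gdnf with the largest ratios.

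WT cells were set beside the mutant. The 2 DMSO lists had 72.85 Mb in common, of which 22.33% lay in mutant GSK343 peaks and 27.24% in WT GSK343 peaks. Among 6496 genes covered in both DMSO lists, 962 were kept, 3315 shrunk and 2219 lost in the mutant, and 1706, 2828 and 1962 in WT. The median retained share was 12.64% in the mutant and 24.55% in WT, each taken over that genotype's own DMSO bases, which were 132.2 Mb in the mutant list and 83.87 Mb in the WT list. The share was higher in WT for 3586 genes, higher in the mutant for 1148 and equal for 1762, of which 1667 were at 0% in both. Lost in the mutant and kept in WT were 138 genes, and 34 had the opposite pair. Under DMSO the median peak width was 1140 bp in the mutant and 936 bp in WT, and the lowest folds differed between genotypes too, with 5th percentiles of 2.275 under DMSO and 2.666 under GSK343 in WT. The difference between genotypes was not tested, because each has 1 list per treatment.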

How the data were processed

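The data were 4 broad peak lists, 1 for each combination of genotype and treatment. Per the submitters' processing notes, which name tools without their roles, Bowtie2 2.4.2, SAMtools 1.12, MACS2 2.2.7.1, bedtools 2.29.2 and the build mm10 were used. The file names say that the authors took out peaks in blacklisted regions. Peak positions are as deposited, with the start read as the base before the first covered base, while gene and promoter positions were counted from 1. Fold, a linear ratio over background, is the authors' deposited value for a peak, as are the −log10 p-value, −log10 q-value and score. They served to describe and filter peaks inside their own list. Genes were the 20665 protein-coding genes of a RefSeq table of GRCm38.p6 on chromosomes 1 to 19. The bases of each gene body inside peaks were counted per list, with overlapping genes counted each. The same counts came from bedtools 2.31.1 for 20665 of 20665 genes in each list, and the code was tested on simulated data. Python 3.11.15, numpy 2.4.6, pandas 2.3.3 and matplotlib 3.10.9 were used.

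The members and the 20 gene lists were chosen with earlier results of these data known. Each list gave up to 4 examples, the highest and lowest retained shares among members with at least 1 kb and 10% of the body covered under DMSO; the 10 leading kept, lost and shrunk genes by covered bases, the 5 leading gained genes, the genes named in the genotype, Ezh1 and Ezh2, and the 5 widest DMSO peaks were also named. Other members were named after their values were seen. Alternatives were thresholds on peaks, joined gaps, gene limits and class limits. The count within a stretch of absent peak numbers, the narrower sets of genes and the restriction to 4 chromosomes for starts were added after the data were seen. No test was made, since each group has 1 list, and read depth is unknown.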

Additional observations from a re-analysis of the deposited data

How the results depend on the processing

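Of 60 values recomputed under other settings, 36 stayed within 1.5 times the count, or within the 95% Wilson interval of the share, and 24 moved. That interval counts genes or peaks as units, although each group has 1 list, and the retained share is a ratio of bases. It served only as a yardstick for the size of a change and does not measure precision. Against 966 kept, 3321 shrunk and 2966 lost genes and a retained share of 17.98%, a −log10 p of at least 5 in both lists gave 2118 shrunk, 1954 lost and 22.44%, and a fold from 3 upward in both lists gave 2056 shrunk, 1357 lost and 25.83%. A fold of at least 3 in the DMSO list alone gave 403 lost and 35.28%, and lists of equal length, ranked by p-value, gave 1240 lost and 27.4%. Counts of kept genes were compared, not their share of covered genes, which was 13.32% in the main setting. That share was 28.41% of 4312 genes and 20.86% of 5446 genes in these 2 settings. With bodies extended by 2.5 kb it was 9.095% of 8972 genes. Peaks of at least 1 kb gave a retained share of 16.56%, and bodies extended by 2.5 kb gave 19.43%. A minimum of 1 kb and 10% of the body left 1195 lost genes, and all genes of the table gave 6694 lost and 16.86%. A limit of 25% between shrunk and kept gave 2225 kept and 2062 shrunk, and a limit of 75% gave 377 kept. The share of wide DMSO peaks in 2 or more pieces, 88.17%, became 54.17% when wide began at 10 kb, 41.18% with peaks closer than 3 kb merged and 58.38% with a fold of at least 3. The share of shrunk genes with a GSK343 peak near the start, 80.4%, became 83.89% within 2.5 kb. The share of lost genes with a CpG-rich promoter, 35.1%, became 52.45% with a fold of at least 3 and 25.81% with at least 1 kb and 10% of the body. Stricter settings test fewer genes, and beyond that the cause was not tested. Without the 588 covered genes that lie in a stretch with absent peak numbers, 929 were kept, 3077 shrunk and 2659 lost. No paired analysis was possible because each genotype and treatment has 1 peak list, with no value per replicate; leaving out a replicate was not run for the same reason. Read depth is unknown, so the precision of these counts is unknown too.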

Other observations

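Genes were also grouped by the leading letters of their symbols, a choice made after the values were seen, for stems with at least 20 covered genes. Olfactory receptor genes (Olfr) were covered in 85 of 1104 cases under mutant DMSO, where 35.1% of all genes were covered. Of the 85, 80 (94.12%) were lost under GSK343, against 40.9% of covered genes. The 2 kept members were Olfr94 (1161 bp covered under both treatments) and Olfr95 (939 bp under DMSO and 754 bp under GSK343). Interleukins and their receptors (Il) had 33 of 43 covered genes lost (76.74%), serine proteases (Prss) 16 of 25 (64%) and keratins (Krt) 19 of 31 (61.29%). The lowest shares lost were those of phosphatase subunits (Ppp), 6 of 22 (27.27%), and fibroblast growth factors (Fgf), 6 of 20 (30%). Solute carriers (Slc), the largest named family with 180 covered genes, had 17 kept, 95 shrunk and 68 lost (37.78%), and collagens (Col) had 1 of 35 kept and 21 shrunk. Zinc finger genes (Zfp) were covered in 76 of 388 cases, with 35 lost (46.05%).

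The peaks that remained lay more often within genes. Protein-coding bodies held 41.85% of the bases of mutant DMSO peaks and 59.88% of those of mutant GSK343 peaks, and in the WT lists 44.64% and 56.99%. The share of covered genes that were lost ranged from 25.12% on chromosome 18 to 45.56% on chromosome 3.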
